A study of Homo sapiens with 10 samples.

Results

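The genes of TGF-beta, BMP and SMAD signalling were followed in cells labelled RD, a human line from a rhabdomyosarcoma. Rhabdomyosarcoma is a soft tissue tumour with features of developing skeletal muscle. The 49 genes were chosen by symbol, from the ligands to the SMADs and their immediate target genes, out of 23228 genes in the table of read counts. The choice was made with earlier results of these data known. Of the 49, 47 passed the filter on low counts and were tested. Cells transfected with NRAS siRNA 1, NRAS siRNA 2 or a nonspecific siRNA, each at 10 nM, were collected at 48 h. NRAS encodes a RAS protein that signals through RAF and MEK to ERK. Another set of cells received SCH772984, which inhibits ERK, at 300 nM, or DMSO as the vehicle, and was collected at 24 h. Each of the 5 groups had 2 libraries, all from 1 cell line, and the siRNA groups share transfection where the drug groups do not. Separate cultures are not named for the replicates, so every p-value rests on a spread between libraries that could be technical alone.

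Ligands of the TGF-beta family bind a pair of type II and type I receptor kinases. TGF-beta and activin receptors phosphorylate SMAD2 and SMAD3, BMP receptors phosphorylate SMAD1, SMAD5 and SMAD9, and both groups enter the nucleus with SMAD4. TGF-beta is secreted in a latent complex tied to the matrix by LTBP proteins, antagonists such as noggin and follistatin trap ligands outside the cell, and SMAD6 and SMAD7 inhibit the pathway from within as its own target genes. In muscle, myostatin and TGF-beta are known to restrain differentiation, BMP signalling holds progenitors in proliferation, and ERK is known to phosphorylate the linker region of the receptor-activated SMADs.

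The libraries held 23224063 to 30768970 reads assigned to genes. NRAS itself was at 52.4 and 52.2 CPM (counts scaled to a common library size) with NRAS siRNA 1 and 51.0 and 48.0 CPM with NRAS siRNA 2, against 219.7 and 272 CPM with the nonspecific siRNA. DUSP6, a gene switched on by ERK, was at 13.5 and 9.28 CPM with SCH772984 and 292 and 265 CPM with DMSO, so the targeted gene and the ERK output gene separated the groups as labelled. Of 11 muscle lineage markers, DES (520 to 928 counts per library), PAX3 (258 to 393) and MEF2C (781 to 1374) were present, whereas MYOD1 (0 to 5 counts), MYOG (0 to 3), PAX7 (1 to 6) and MYF5 (0 in every library) were at or near 0. The defining muscle regulators were thus at or near the limit of detection in a line labelled as rhabdomyosarcoma. The identity of the line was not tested, so its name rests on the labels. The summed level of the 11 was 104 and 98.1 CPM with SCH772984 and 86.5 and 70.4 CPM with DMSO, with CDH15 called higher and CHRNA1 lower. The sum was 78.6 and 68.2 CPM with NRAS siRNA 1 and 88.3 and 75.7 CPM with NRAS siRNA 2, against 77.4 and 66.8 CPM with the nonspecific siRNA, and CHRNA1 was called lower there too (-1.88 ± 0.42, adjusted p = 0.0283 by edgeR). Among 5 fibroblast markers DCN, LUM and COL1A1 were called higher and PDGFRA lower with SCH772984, and their summed level was 3342 and 3128 CPM with SCH772984, against 1485 and 1283 CPM with DMSO, nearly all of it COL1A1. With the NRAS siRNAs COL1A1 alone was called, lower, and the sum was 1342 and 1205 CPM with NRAS siRNA 1 and 1205 and 1295 CPM with NRAS siRNA 2, against 1591 and 1492 CPM with the nonspecific siRNA. The part of these markers in the results on the pathway was not tested. None of the 3 epithelial markers tested, of 5 listed, was called in any comparison, with summed levels of 227 and 365 CPM with SCH772984 and 234 and 349 CPM with DMSO. The epithelial sum was 117 and 193 CPM with NRAS siRNA 1 and 138 and 212 CPM with NRAS siRNA 2. With the nonspecific siRNA it was 191 and 215 CPM. In every library the epithelial sum exceeded that of the 11 muscle markers. The blood markers PTPRC and CD3E and the endothelial markers PECAM1 and CDH5 had at most 10 counts in a library, while KDR (0 to 15 counts) was called lower with SCH772984 and CD14 (33 to 69 counts) lower with the siRNAs.

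With the NRAS siRNAs and with the ERK inhibitor alike, transcripts of the ligands TGFB2, TGFB3 and BMP4 and of SMAD6 and ID3 were higher than in the controls, and those of BAMBI, FST and TGFBI were lower. With SCH772984, 25 of the 47 tested genes (53.2%) passed an adjusted p of 0.05 in edgeR's quasi-likelihood test, against 28.0% of all 14761 genes tested. Of these 25, 17 were higher and 8 lower, and 12 had changed at least 2-fold. The median log2 fold change of the 47 was 0.26, and that of all tested genes 0.00. Their median absolute log2 fold change was 0.53, against 0.29 over all genes. With the mean of both NRAS siRNAs, 9 of 47 (19.1%) passed, 6 higher and 3 lower, against 7.95% of all genes. The median log2 fold change of the 47 was 0.09 and the median absolute value 0.26, against -0.01 and 0.19 over all genes. These genes and the further lists below were chosen with earlier results of these data known. Shares set beside those of all genes therefore describe the lists and do not test the pathway.

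Taken singly, NRAS siRNA 1 gave 4 calls among the 47, all higher (8.51%, against 2.07% of all genes): TGFB2, BMP4, SMAD6 and ID3. NRAS siRNA 2 gave 8 (17.0%, against 6.43% of all genes), the same 4 genes with TGFB3 and GDF6 higher and FST and TGFBI lower. These comparisons share the nonspecific siRNA libraries. The count for NRAS siRNA 1 was 0 without its replicate 1 or replicate 2 of the nonspecific siRNA, 1 without replicate 1 of that control and 2 without either SCH772984 library. That for NRAS siRNA 2 was 0 without its replicate 1 and 2 without replicate 1 of the nonspecific siRNA. Of the 9 genes called with the mean of both siRNAs, 8 were also called with SCH772984 in the same direction, namely TGFB2, TGFB3, BMP4, SMAD6 and ID3 higher and BAMBI, FST and TGFBI lower. Those 8 were 88.9% of the siRNA calls and 32.0% of the SCH772984 calls among the 47. Over all tested genes, 658 were called in the same direction in both, which was 56.0% of the siRNA calls and 15.9% of the SCH772984 calls, and with 9 calls the larger share is not shown to be particular to the pathway. The remaining 1, GDF6, did not pass with SCH772984. A further 17 genes were called with SCH772984 and not with the siRNAs, and 21 in neither comparison. The count for the mean of both siRNAs was 3 with replicate 1 of the control siRNA removed, 4 with replicate 2 of it removed and 5 without replicate 1 of NRAS siRNA 2. That for SCH772984 was 15 without its replicate 1 and 16 without DMSO replicate 2. Each level is of RNA in a culture, so fewer cells making a transcript and less RNA per cell cannot be told apart.

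**Figure D1:**
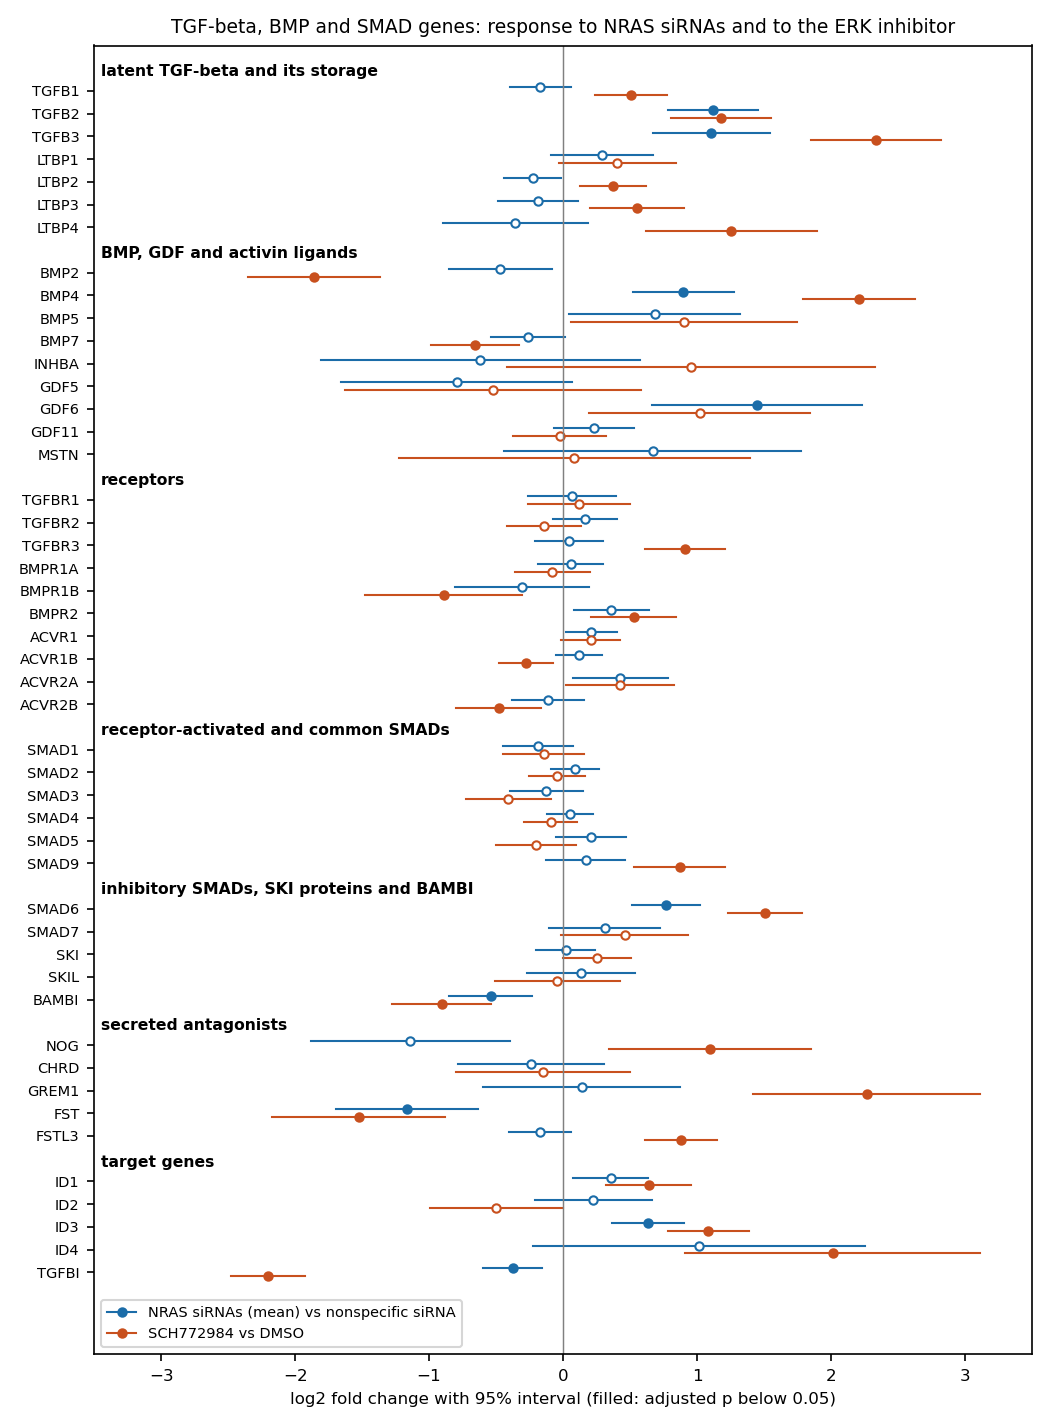
Log2 fold change (x axis, with 95% confidence interval) of each of the 47 tested genes, grouped by role, for the mean of both NRAS siRNAs over the nonspecific siRNA (blue) and for SCH772984 over DMSO (orange). Filled points passed an adjusted p of 0.05: 9 for the siRNAs and 25 for SCH772984, with TGFB3, GREM1 and BMP4 furthest to the right and TGFBI and BMP2 furthest to the left.

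Of the 3 TGF-beta genes, TGFB2 rose in both experiments. It stood at 125 and 100.5 CPM with NRAS siRNA 1 and 141 and 102 CPM with NRAS siRNA 2, against 56.0 and 52.1 CPM with the nonspecific siRNA. It stood at 175 and 175 CPM with SCH772984, against 85.8 and 68.7 CPM with DMSO. In neither experiment did treated and control libraries overlap. The rise was 2.17-fold with the siRNAs (log2 fold change 1.12 ± 0.15 (SE), adjusted p = 0.00413 by edgeR) and 2.27-fold with SCH772984 (1.18 ± 0.17, adjusted p = 0.000839). The responses differed by -0.06 on the log2 scale, with a 95% interval of -0.55 to 0.43. Between the controls, the nonspecific siRNA over DMSO, the log2 difference was -0.51 ± 0.17 and did not pass (adjusted p = 0.25). TGFB2 was called in both comparisons under all 17 alternatives of processing and left-out libraries.

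TGFB3 also rose in both, and more with the drug (difference of the responses -1.23 ± 0.28, adjusted p = 0.0313). Its level was 72.7 and 62.8 CPM with SCH772984, against 13.2 and 13.7 CPM with DMSO, a 5.05-fold rise (2.34 ± 0.22, adjusted p = 6.66e-05). With NRAS siRNA 1 it was 24.9 and 16.3 CPM and with NRAS siRNA 2 30.04 and 20.9 CPM, against 10.4 and 10.8 CPM with the nonspecific siRNA. All 4 NRAS siRNA libraries were above both control libraries, and all were below both SCH772984 libraries. The mean siRNA response was 2.15-fold (1.11 ± 0.20, adjusted p = 0.0125). NRAS siRNA 1 on its own missed the threshold (0.95 ± 0.22, adjusted p = 0.0558), and the mean response missed it without either replicate of the nonspecific siRNA (adjusted p up to 0.0866).

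TGFB1, the isoform most studied in fibrosis, rose with the drug and did not pass with the siRNAs, and the responses differed (-0.68 ± 0.16, adjusted p = 0.0334). It was at 192 and 149 CPM with SCH772984, against 118 and 122 CPM with DMSO, and at 108 and 109 CPM with NRAS siRNA 1 and 111 and 119.9 CPM with NRAS siRNA 2, against 133 and 119 CPM with the nonspecific siRNA. Both SCH772984 libraries lay above both DMSO libraries, replicate 1 well above replicate 2, and 1 NRAS siRNA 2 library lay within the range of its controls. The rise was 1.42-fold (0.51 ± 0.12, adjusted p = 0.0118), and the siRNA value was -0.17 ± 0.10, adjusted p = 0.328. Without DMSO replicate 1, DMSO replicate 2 or SCH772984 replicate 1 the drug call was lost (adjusted p up to 0.116).

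Per kilobase of transcript, where levels of different genes can be compared, TGFB1 was the highest of the 3 in every library. The summed level was 134 and 114 CPM per kb with SCH772984, against 65.1 and 63.2 CPM per kb with DMSO. It was 74.1 and 66.0 CPM per kb with NRAS siRNA 1 and 80.3 and 72.2 CPM per kb with NRAS siRNA 2, against 63.3 and 57.7 CPM per kb with the nonspecific siRNA. The sum was thus higher in every treated library than in its controls, and the make-up also shifted. TGFB1 was 52.0 and 47.3% of the sum with SCH772984 and 65.5 and 69.6% with DMSO. In the siRNA experiment it was 52.7 and 59.6% with NRAS siRNA 1 and 49.7 and 59.97% with NRAS siRNA 2, against 75.7 and 74.4% with the nonspecific siRNA. By these values the larger gain in share was that of TGFB3 with the drug and that of TGFB2 with the siRNAs. TGFB3 made up 21.6 and 21.9% with SCH772984 and 8.01 and 8.57% with DMSO, while TGFB2 made up 34.0 and 30.6% with NRAS siRNA 1 and 35.4 and 28.6% with NRAS siRNA 2, against 17.8 and 18.2% with the nonspecific siRNA. Shares were not tested, and 2 libraries a group cannot reach a p of 0.05 in an exact test.

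**Figure D2:**
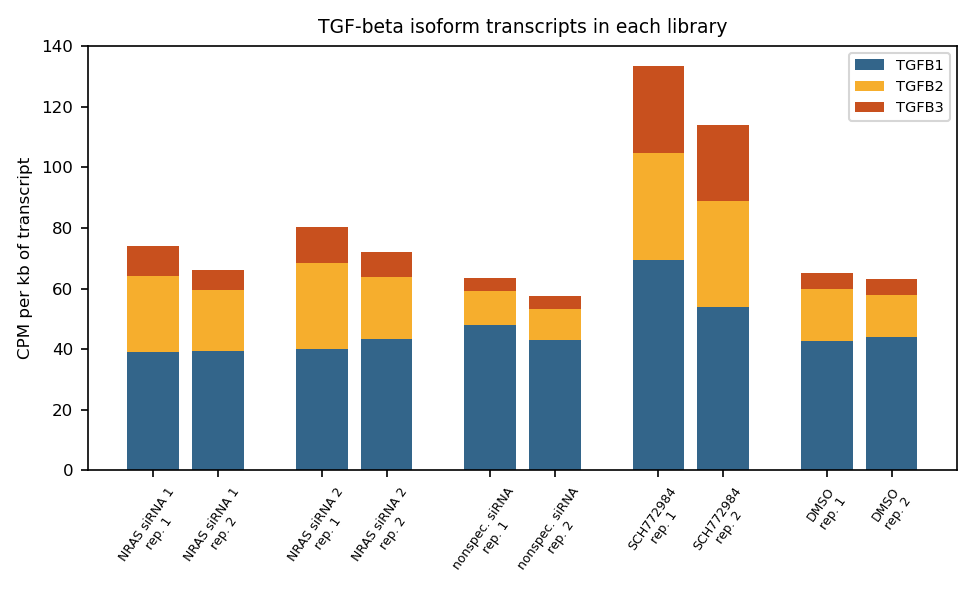
Level of the 3 TGF-beta genes in each library, in CPM per kb of transcript (y axis, stacked bars that start at 0), for the 10 libraries (x axis). The SCH772984 bars reach 134 and 114 CPM per kb and all others stay at or below 80.3, and the TGFB2 section is taller in each NRAS siRNA bar than in the nonspecific siRNA bars.

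The LTBP genes, whose proteins anchor latent TGF-beta or, for LTBP2, elastic fibres in the matrix, moved with SCH772984 in 3 of 4 cases. Of all genes 28.0% passed in that comparison. LTBP4 was at 154 and 83.2 CPM with SCH772984, against 60.2 and 39.2 CPM with DMSO. LTBP3 was at 116 and 80.7 CPM with SCH772984, against 71.1 and 62.9 CPM with DMSO. In both genes replicate 1 of the drug was well above replicate 2, and neither drug library overlapped DMSO. The rises were 2.39-fold for LTBP4 (1.25 ± 0.29, adjusted p = 0.00995), 1.47-fold for LTBP3 (0.55 ± 0.16, adjusted p = 0.0264) and 1.29-fold for LTBP2 (0.37 ± 0.11, adjusted p = 0.0312). LTBP2 was at 87.1 and 80.2 CPM with SCH772984 and 61.6 and 67.7 CPM with DMSO. None of the 3 calls held without DMSO replicate 2 or SCH772984 replicate 1 (adjusted p up to 0.239), and that of LTBP2 was also lost without either other library of that comparison. With the siRNAs LTBP4 was at 56.6 and 44.2 CPM with NRAS siRNA 1 and 46.2 and 42.9 CPM with NRAS siRNA 2, against 69.6 and 51.6 CPM with the nonspecific siRNA. LTBP3 was at 61.8 and 53.8 CPM with NRAS siRNA 1 and 61.1 and 58.7 CPM with NRAS siRNA 2, against 70.4 and 63.6 CPM with the nonspecific siRNA. LTBP2 was at 54.9 and 59.7 CPM with NRAS siRNA 1 and 51.6 and 59.5 CPM with NRAS siRNA 2, against 62.4 and 69.8 CPM with the nonspecific siRNA. For LTBP3 and LTBP2 all 4 NRAS siRNA libraries were below both controls, and for LTBP4 the groups overlapped. LTBP1 did not pass with the drug (0.40 ± 0.20, adjusted p = 0.151). No LTBP gene passed with the siRNAs (7.95% of all genes did). Log2 fold changes of the mean ran from -0.36 for LTBP4 to 0.29 for LTBP1.

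Among the other ligands, BMP4 and BMP2, which act through the same receptors, moved in opposite directions with the drug. BMP4 was at 43.1 and 46.3 CPM with SCH772984, against 10.1 and 9.26 CPM with DMSO. BMP2 was at 2.32 and 1.47 CPM with SCH772984, against 6.60 and 7.06 CPM with DMSO. The groups did not overlap for either gene. BMP4 rose 4.62-fold (2.21 ± 0.19, adjusted p = 3.77e-05) and BMP2 was 3.62-fold lower (-1.86 ± 0.22, adjusted p = 0.000314). BMP7, a ligand needed for kidney and eye development, was also lower with the drug, at 16.4 and 12.3 CPM with SCH772984, against 21.8 and 23.5 CPM with DMSO (-0.66 ± 0.15, adjusted p = 0.00882). The BMP7 call was lost without DMSO replicate 2 or SCH772984 replicate 2 (adjusted p up to 0.077), while those of BMP4 and BMP2 were kept under all 17 alternatives.

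With the siRNAs BMP4 was at 16.9 and 13.6 CPM for NRAS siRNA 1 and 16.2 and 13.1 CPM for NRAS siRNA 2, against 9.44 and 6.66 CPM for the nonspecific siRNA. All 4 NRAS siRNA libraries exceeded both controls. The mean rise was 1.86-fold (0.90 ± 0.17, adjusted p = 0.0151), and it missed the threshold without replicate 2 of the nonspecific siRNA (adjusted p = 0.0836). BMP2 was lower in all 4 NRAS siRNA libraries, at 4.996 and 5.98 CPM with NRAS siRNA 1 and 4.31 and 4.73 CPM with NRAS siRNA 2, against 6.70 and 7.08 CPM with the nonspecific siRNA, but did not pass (-0.47 ± 0.17, adjusted p = 0.119). BMP7 was at 16.9 and 17.7 CPM with NRAS siRNA 1 and 17.5 and 19.3 CPM with NRAS siRNA 2, against 21.2 and 21.6 CPM with the nonspecific siRNA, below both controls in all 4 NRAS siRNA libraries but not past the threshold (-0.26 ± 0.12, adjusted p = 0.211). GDF6, a BMP-type ligand of the skeleton and eye, was scarce, at 31 and 24 counts with NRAS siRNA 1 and 69 and 37 counts with NRAS siRNA 2, against 15 and 9 counts with the nonspecific siRNA. Its mean rise was 2.73-fold (1.45 ± 0.35, adjusted p = 0.0366), a call lost in 8 of 17 alternatives, among them those without either nonspecific siRNA library, without replicate 1 of NRAS siRNA 1 or of NRAS siRNA 2, without DMSO replicate 2 and without either SCH772984 library (adjusted p up to 0.172). With SCH772984 it had 35 and 39 counts, against 17 and 15 with DMSO (1.02 ± 0.37, adjusted p = 0.0655).

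The ligands not called in either experiment were BMP5, INHBA, GDF5, GDF11 and MSTN. INHBA, which encodes the activin A subunit, varied widely between replicates. It was at 14.8 and 32.8 CPM with SCH772984 and 10.1 and 14.5 CPM with DMSO, and at 6.08 and 21.1 CPM in the nonspecific siRNA libraries alone. Its SCH772984 value was 0.95 ± 0.62, with an interval of -0.42 to 2.33 on the log2 scale. GDF11, which shares receptors with myostatin, was steady, with a drug value of -0.03 (interval -0.37 to 0.32). BMP5, a ligand of the growing skeleton, was at 2.55 and 2.93 CPM with SCH772984 and 1.45 and 1.48 CPM with DMSO (0.90 ± 0.38, adjusted p = 0.102), and at 4.29 and 5.77 CPM with NRAS siRNA 1 and 7.39 and 6.34 CPM with NRAS siRNA 2, against 2.15 and 5.13 CPM with the nonspecific siRNA (0.68 ± 0.29, adjusted p = 0.165). MSTN, the myostatin gene, had 5 to 20 counts per library and GDF5 5 to 13, too few for a narrow interval. BMP6 with 0 to 3 counts and INHBB with 1 to 6 were not tested. A count of 0 in a library allows up to 3 counts, which is 0.0975 to 0.129 CPM over the 10 libraries.

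Of the 10 receptor genes, none passed with the siRNAs (7.95% of all genes did) and 5 passed with SCH772984 (against 28.0% of all genes), of which TGFBR3 and BMPR2 were higher and BMPR1B, ACVR1B and ACVR2B lower. TGFBR3 encodes betaglycan, a co-receptor that presents TGF-beta2 and binds inhibin. It was at 56.3 and 43.8 CPM with SCH772984, against 25.9 and 27.4 CPM with DMSO, a 1.88-fold rise (0.91 ± 0.13, adjusted p = 0.00109). It was at 49.5 and 47.3 CPM with NRAS siRNA 1 and 54.6 and 53.0 CPM with NRAS siRNA 2, against 45.2 and 53.9 CPM with the nonspecific siRNA. DMSO was thus the low group and the other 4 groups overlapped. The nonspecific siRNA exceeded DMSO by a log2 difference of 0.89 ± 0.13, adjusted p = 0.027, about as much as SCH772984 did.

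BMPR2, the main type II receptor of BMPs, was at 317 and 342 CPM with SCH772984, against 257 and 201 CPM with DMSO (0.53 ± 0.14, adjusted p = 0.0219). ACVR2B, a type II receptor of activin and myostatin, was at 40.3 and 38.2 CPM with SCH772984, against 63.5 and 46.1 CPM with DMSO (-0.48 ± 0.14, adjusted p = 0.0318). Neither pair of groups overlapped. BMPR1B, a type I receptor of BMPs and GDF5, was at 1.79 and 1.71 CPM with SCH772984, against 2.86 and 3.61 CPM with DMSO (-0.89 ± 0.26, adjusted p = 0.0302). The type I activin receptor ACVR1B was at 40.3 and 39.5 CPM with SCH772984, against 47.4 and 48.99 CPM with DMSO, and its call (-0.27 ± 0.09, adjusted p = 0.0463) was lost in 15 of 17 alternatives (adjusted p up to 0.232), including the removal of any 1 library. The calls of BMPR2 and BMPR1B were lost without DMSO replicate 2 or either SCH772984 library, and that of ACVR2B without DMSO replicate 1 or either SCH772984 library (adjusted p up to 0.211). With the siRNAs BMPR2 was at 269 and 283 CPM with NRAS siRNA 1 and 381 and 334 CPM with NRAS siRNA 2, against 214 and 276 CPM with the nonspecific siRNA. ACVR2B was at 90.6 and 92.0 CPM with NRAS siRNA 1 and 74.9 and 77.7 CPM with NRAS siRNA 2, against 83.1 and 97.6 CPM with the nonspecific siRNA. BMPR1B was at 1.55 and 2.16 CPM with NRAS siRNA 1 and 2.00 and 2.95 CPM with NRAS siRNA 2, against 2.61 and 2.68 CPM with the nonspecific siRNA. For these 3 genes NRAS siRNA and control libraries overlapped. ACVR1B was at 53.0 and 58.1 CPM with NRAS siRNA 1 and 57.4 and 58.3 CPM with NRAS siRNA 2, against 53.0 and 51.5 CPM with the nonspecific siRNA, and none of the 4 passed, with log2 fold changes of 0.36 for BMPR2, -0.11 for ACVR2B, -0.31 for BMPR1B and 0.12 for ACVR1B.

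The signalling receptors of TGF-beta itself did not pass in either experiment. TGFBR1 had a drug value of 0.12 ± 0.17 and a mean siRNA value of 0.07 ± 0.15, and TGFBR2 values of -0.14 ± 0.13 and 0.16 ± 0.11. TGFBR2 followed the experiment instead. It was at 120.2 and 120.0 CPM with NRAS siRNA 1, 115 and 111 CPM with NRAS siRNA 2 and 92.2 and 116 CPM with the nonspecific siRNA, whereas it was at 61.9 and 51.8 CPM with SCH772984 and 60.4 and 65.0 CPM with DMSO. Every library of the siRNA experiment lay above every library of the drug experiment. The same held for ACVR2B, whose difference between the controls was not called. Between the controls, nonspecific siRNA over DMSO, TGFBR2 differed by 0.73 ± 0.13, adjusted p = 0.0485. With TGFBR3 it was 1 of 2 calls among the 47 genes in that comparison (4.26%, against 0.379% of all genes), where transfection and the time of collection cannot be told apart. The TGFBR2 call there was lost in 12 of 17 alternatives and that of TGFBR3 in 8 of 17, and the count was 0 or 1 without any 1 library, except without DMSO replicate 1, where other genes took their place and it was 2. BMPR1A, ACVR1 and ACVR2A were also not called with either treatment, with drug values of -0.08, 0.21 and 0.43.

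Among the SMADs that carry the signal, 1 call was made. Of SMAD1, SMAD2, SMAD3, SMAD4, SMAD5 and SMAD9, none passed with the siRNAs (7.95% of all genes did). Values of the mean ran from -0.19 for SMAD1 to 0.21 for SMAD5. With SCH772984 SMAD9, a SMAD of the BMP branch, passed and the other 5 did not (16.7% called, against 28.0% of all genes). SMAD9 was at 14.4 and 17.9 CPM with SCH772984, against 9.11 and 8.58 CPM with DMSO, without overlap (0.87 ± 0.15, adjusted p = 0.00262). It was at 11.1 and 10.6 CPM with NRAS siRNA 1 and 10.1 and 9.72 CPM with NRAS siRNA 2, against 9.97 and 8.50 CPM with the nonspecific siRNA. SMAD4, the shared partner, differed by -0.09 with the drug (interval -0.29 to 0.11), and SMAD2 by -0.04 (interval -0.25 to 0.16). SMAD3 was at 80.9 and 91.8 CPM with SCH772984 and 111 and 118 CPM with DMSO without overlap, and narrowly missed the threshold (-0.41 ± 0.14, adjusted p = 0.0555). SMAD1 and SMAD5 had drug values of -0.15 and -0.20. These are transcript levels, and the phosphorylation through which SMADs are switched on was not measured.

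Of the inhibitors that act in or on the cell, SMAD6 and BAMBI moved in both experiments, in opposite directions. SMAD6, which blocks BMP receptors and is itself a BMP target gene, was at 25.0 and 23.2 CPM with SCH772984, against 8.36 and 8.61 CPM with DMSO. It was at 11.8 and 11.5 CPM with NRAS siRNA 1 and 10.9 and 10.3 CPM with NRAS siRNA 2, against 6.41 and 6.62 CPM with the nonspecific siRNA. Replicates were close and no treated library overlapped its controls. The rise was 2.84-fold with the drug (1.51 ± 0.12, adjusted p = 3.2e-05) and 1.70-fold with the siRNAs (0.77 ± 0.11, adjusted p = 0.00641). The drug call was kept under all 17 alternatives, and the siRNA call missed the threshold without replicate 1 of the nonspecific siRNA (adjusted p = 0.0614).

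BAMBI, a decoy receptor without a kinase domain, was at 18.7 and 21.6 CPM with SCH772984, against 33.9 and 41.5 CPM with DMSO. It was at 32.4 and 37.7 CPM with NRAS siRNA 1 and 31.5 and 42.0 CPM with NRAS siRNA 2, against 48.9 and 55.5 CPM with the nonspecific siRNA. Treated libraries were below their own controls in both experiments, but the NRAS siRNA libraries overlapped DMSO. Both nonspecific siRNA libraries lay above both DMSO libraries, a difference between the controls that was not called. BAMBI was 1.87-fold lower with the drug (-0.91 ± 0.17, adjusted p = 0.00339) and 1.46-fold lower with the siRNAs (-0.54 ± 0.14, adjusted p = 0.0436). The siRNA call rested close to the threshold. It was lost in 8 of 17 alternatives, including those without either nonspecific siRNA library, replicate 1 of either NRAS siRNA, DMSO replicate 2 or either SCH772984 library (adjusted p up to 0.168).

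SMAD7, SKI and SKIL did not pass in either experiment. SMAD7, the inhibitory SMAD of TGF-beta and activin signals, was at 39.9 and 48.7 CPM with SCH772984 and 26.3 and 38.0 CPM with DMSO (0.46 ± 0.21, adjusted p = 0.134). The corresponding siRNA value was 0.31 ± 0.19, adjusted p = 0.316. SKI and SKIL, nuclear proteins that hold SMAD complexes inactive, had drug values of 0.26 ± 0.11 and -0.04 ± 0.21. The intervals of the drug values were -0.01 to 0.93 for SMAD7, 0.00 to 0.51 for SKI and -0.51 to 0.42 for SKIL, so a rise of SMAD7 as large as that of SMAD6 (1.51) lay outside its interval.

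The 250 bases before the transcription start of SMAD6 and BAMBI are shown because both genes moved in both experiments and each has 1 annotated start in the RefSeq promoter table of build GRCh38.p14. Capitals mark GTCTAGAC, the palindrome that SMAD3 and SMAD4 bind, in SMAD6, and GGCGCC, a GC-rich element bound by BMP SMADs, in BAMBI. Coordinates are chr15:66701986-66702235 for SMAD6 and chr10:28677271-28677520 for BAMBI, both on the plus strand.
SMAD6: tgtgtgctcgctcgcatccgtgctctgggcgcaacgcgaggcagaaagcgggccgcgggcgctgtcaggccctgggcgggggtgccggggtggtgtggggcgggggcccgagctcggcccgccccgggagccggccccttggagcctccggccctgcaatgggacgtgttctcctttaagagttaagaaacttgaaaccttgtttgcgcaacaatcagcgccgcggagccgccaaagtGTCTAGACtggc
BAMBI: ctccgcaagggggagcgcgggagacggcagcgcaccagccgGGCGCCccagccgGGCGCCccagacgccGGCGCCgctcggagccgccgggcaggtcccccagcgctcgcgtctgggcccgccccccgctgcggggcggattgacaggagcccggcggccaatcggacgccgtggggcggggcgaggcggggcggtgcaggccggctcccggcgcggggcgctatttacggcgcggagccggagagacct
The palindrome of SMAD6 begins 12 bases before the start, and the 3 GGCGCC elements of BAMBI begin 209, 196 and 181 bases before it. Both motifs read the same on both strands and neither overlaps the other. GTCTAGAC was found in 0.182% of 35116 promoter windows of this length that were searched and, among 76 windows of the 44 genes of the pathway that matched the table, only in SMAD6. GGCGCC was found in 16.4% of all windows and in 20 of the 76 (26.3%). A match is a description of the letters in the window, and binding was not measured.

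The secreted antagonists split, with NOG, GREM1 and FSTL3 higher and FST lower with SCH772984, and FST alone called with the siRNAs. The calls were 4 of 5 with the drug (80.0%, against 28.0% of all genes). With the siRNAs they were 1 of 5 (20.0%, against 7.95% of all genes). FST encodes follistatin, which traps activin and myostatin. It was at 10.2 and 10.7 CPM with SCH772984, against 24.8 and 35.4 CPM with DMSO, and at 9.54 and 17.0 CPM with NRAS siRNA 1 and 9.74 and 11.9 CPM with NRAS siRNA 2, against 21.3 and 32.5 CPM with the nonspecific siRNA. All 6 treated libraries were below all 4 control libraries. The level was 2.88-fold lower with the drug (-1.53 ± 0.29, adjusted p = 0.00399) and 2.25-fold lower with the siRNAs (-1.17 ± 0.24, adjusted p = 0.0205). The siRNA call was lost without replicate 2 of the nonspecific siRNA or replicate 1 of NRAS siRNA 2 (adjusted p up to 0.12).

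The window before the FST start is shown because FST was the most lowered antagonist in both experiments. It lies at chr5:53480379-53480628 on the plus strand (GRCh38.p14). Capitals mark a match to TGANTCA, a loose pattern searched for AP-1, a factor made of FOS and JUN proteins. N stands for any base, and the match in FST reads TGATTCA. Binding of AP-1 to this form was not measured.
FST: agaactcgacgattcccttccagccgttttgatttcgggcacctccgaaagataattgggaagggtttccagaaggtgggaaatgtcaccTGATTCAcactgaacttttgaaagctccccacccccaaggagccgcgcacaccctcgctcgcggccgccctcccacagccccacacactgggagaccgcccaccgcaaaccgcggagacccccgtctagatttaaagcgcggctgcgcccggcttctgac
The match begins 160 bases before the start. TGANTCA was found on either strand in 6.57% of all 35116 windows and in 5 of the 76 windows of the pathway (6.58%), and the ETS element CCGGAAG in 8.52% of all windows and 2 of the 76 (2.63%). The windows before TGFB2 and ID3, which also have 1 start each, held none of the 4 motifs searched.

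FSTL3, a follistatin relative with the same ligands, was at 58.1 and 61.2 CPM with SCH772984, against 31.7 and 33.1 CPM with DMSO. It was at 25.0 and 27.6 CPM with NRAS siRNA 1 and 23.0 and 28.6 CPM with NRAS siRNA 2, against 29.6 and 29.1 CPM with the nonspecific siRNA. The drug libraries stood apart from every other library, and the 4 NRAS siRNA libraries lay just below their controls. FSTL3 rose 1.84-fold with the drug (0.88 ± 0.12, adjusted p = 0.000672) and did not pass with the siRNAs (-0.17 ± 0.10, adjusted p = 0.322).

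The BMP antagonist GREM1 (gremlin) was at 31.1 and 48.3 CPM with SCH772984, against 6.65 and 9.79 CPM with DMSO. With the siRNAs it was at 7.21 and 13.0 CPM with NRAS siRNA 1 and 7.93 and 11.4 CPM with NRAS siRNA 2, against 6.08 and 11.8 CPM with the nonspecific siRNA. DMSO and the 3 siRNA groups together lay between 6.08 and 13.0 CPM. GREM1 rose 4.82-fold with the drug (2.27 ± 0.38, adjusted p = 0.0021) and had a siRNA value of 0.14 ± 0.33. NOG, which encodes the BMP antagonist noggin, was at 6.16 and 8.77 CPM with SCH772984, against 2.46 and 4.48 CPM with DMSO. With the siRNAs it was at 0.739 and 1.48 CPM for NRAS siRNA 1 and 1.02 and 1.602 CPM for NRAS siRNA 2, against 2.65 and 2.64 CPM for the nonspecific siRNA. The drug libraries lay above and the NRAS siRNA libraries below their controls. The drug rise was 2.14-fold (1.10 ± 0.34, adjusted p = 0.0357), a call lost without DMSO replicate 1 or either SCH772984 library (adjusted p up to 0.188), and the siRNA value did not pass (-1.14 ± 0.33, adjusted p = 0.0642). CHRD, which encodes the BMP antagonist chordin, had a drug value of -0.15 ± 0.29 and a siRNA value of -0.24 ± 0.24 and was called with neither.

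**Figure D3:**
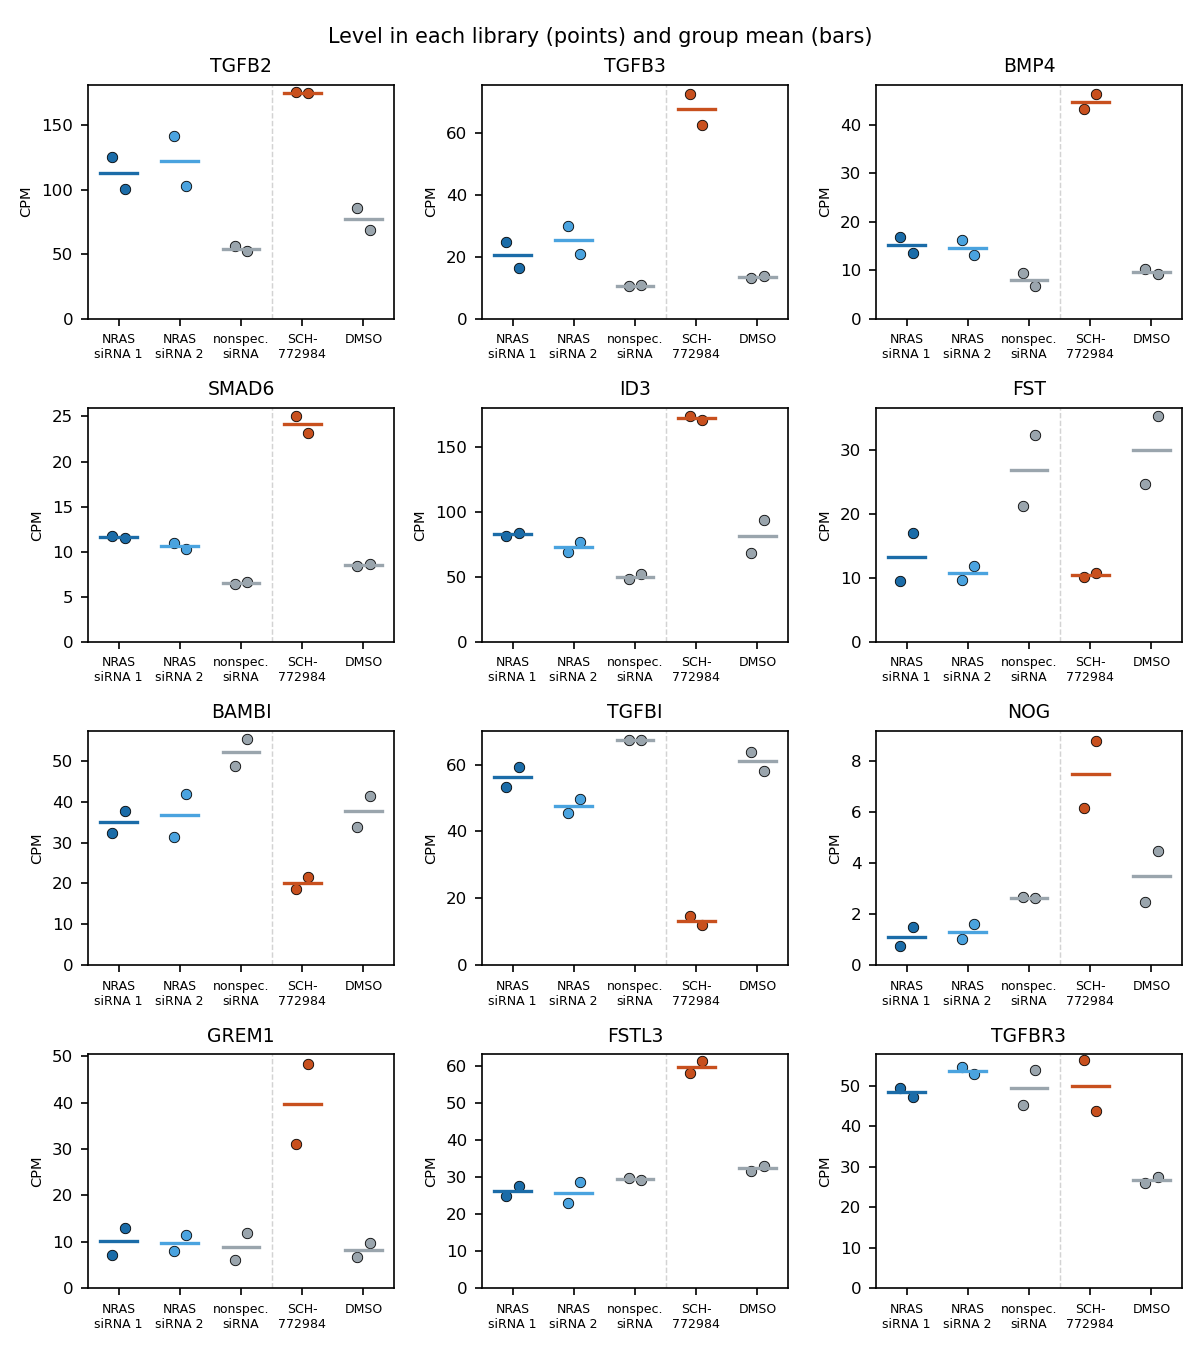
Level in CPM (y axis, from 0) of 12 genes in each of the 10 libraries (points), with the mean of each group as a bar. The dashed line divides the siRNA experiment (48 h) from the drug experiment (24 h). The panels of TGFB2, TGFB3, BMP4, SMAD6 and ID3 show treated points above their controls in both experiments, those of FST, BAMBI and TGFBI below, and that of TGFBR3 shows DMSO as the low group.

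Of the target genes, ID3 rose in both experiments. The ID genes encode inhibitors of basic helix-loop-helix factors such as MYOD and are direct BMP targets. ID3 was at 174 and 171 CPM with SCH772984, against 68.4 and 93.9 CPM with DMSO, and at 81.6 and 83.5 CPM with NRAS siRNA 1 and 69.3 and 77.0 CPM with NRAS siRNA 2, against 48.4 and 51.8 CPM with the nonspecific siRNA. The treated libraries did not overlap their own controls, but the NRAS siRNA libraries lay within the range of DMSO. The nonspecific siRNA was below DMSO by a log2 value that did not pass (-0.70 ± 0.14, adjusted p = 0.0693). The rise was 2.12-fold with the drug (1.08 ± 0.14, adjusted p = 0.000417) and 1.55-fold with the siRNAs (0.63 ± 0.12, adjusted p = 0.0155). The siRNA call was lost without either nonspecific siRNA library (adjusted p up to 0.0989).

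ID1 and ID4 were called with the drug only. ID1 was at 85.8 and 73.7 CPM with SCH772984, against 43.2 and 59.0 CPM with DMSO (0.64 ± 0.14, adjusted p = 0.00891), and the call was lost without SCH772984 replicate 1 (adjusted p = 0.0816). With the siRNAs it was at 52.1 and 50.1 CPM for NRAS siRNA 1 and 45.8 and 48.4 CPM for NRAS siRNA 2, against 36.6 and 40.1 CPM for the nonspecific siRNA, higher in all 4 libraries but not past the threshold (0.36 ± 0.13, adjusted p = 0.109). ID4 had 24 and 37 counts with SCH772984 and 10 and 3 counts with DMSO (2.01 ± 0.49, adjusted p = 0.014), without overlap, a call lost without DMSO replicate 2 or SCH772984 replicate 2 (adjusted p up to 0.109). With the siRNAs ID4 had 7 and 11 counts for NRAS siRNA 1 and 15 and 10 for NRAS siRNA 2, against 4 and 5 for the nonspecific siRNA (1.02 ± 0.56, adjusted p = 0.277). ID2 was at 63.3 and 76.0 CPM with SCH772984 and 74.7 and 122 CPM with DMSO, with overlap, and did not pass (-0.50 ± 0.22, adjusted p = 0.123). A near-identical copy, ID2B, had 36 to 131 counts, so reads of ID2 may be split and its level is uncertain. Per kilobase of transcript ID3 was the highest of the 4 in both treated and untreated cells, at 138 CPM per kb with SCH772984 and 64.9 CPM per kb with DMSO, followed with SCH772984 by ID1 (80.2), ID2 (34.1) and ID4 (0.464).

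TGFBI, a secreted matrix protein named for its induction by TGF-beta, was lower in both experiments, while all 3 TGF-beta genes were higher with the drug. It was at 14.6 and 11.9 CPM with SCH772984, against 63.8 and 58.1 CPM with DMSO. It was at 53.4 and 59.4 CPM with NRAS siRNA 1 and 45.6 and 49.8 CPM with NRAS siRNA 2, against 67.2 and 67.3 CPM with the nonspecific siRNA. The drug libraries were the lowest by a wide margin, and the NRAS siRNA libraries were only slightly under their controls. TGFBI was 4.602-fold lower with the drug (-2.20 ± 0.12, adjusted p = 3.93e-06), the smallest p of the 47 genes in that comparison, and 1.30-fold lower with the siRNAs (-0.38 ± 0.10, adjusted p = 0.0459). The siRNA call was lost in 10 of 17 alternatives, among them both other scalings and the removal of either nonspecific siRNA library, either NRAS siRNA 1 library, replicate 1 of NRAS siRNA 2 or either DMSO library (adjusted p up to 0.165). The window before its start, shown because TGFBI had the smallest p, lies at chr5:136028738-136028987 on the plus strand (GRCh38.p14), with GGCGCC in capitals.
TGFBI: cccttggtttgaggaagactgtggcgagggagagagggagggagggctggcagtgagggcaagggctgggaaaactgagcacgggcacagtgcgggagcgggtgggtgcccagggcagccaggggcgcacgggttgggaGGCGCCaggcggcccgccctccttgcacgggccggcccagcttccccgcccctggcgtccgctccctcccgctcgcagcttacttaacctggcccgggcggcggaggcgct
The element begins 111 bases before the start, and no palindrome GTCTAGAC, AP-1 or ETS element of the letters given above is in the window.

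Whether the siRNA response and the drug response differed was tested as the mean siRNA response minus the drug response. Of the 47 genes 12 passed (25.5%, against 7.30% of all genes), 10 with the siRNA response below the drug response and 2 above it, against 675 below and 403 above over all genes. Time and transfection differ between the experiments and cannot be told apart from the means of lowering the pathway. The ERK output gene DUSP6 changed by -1.24 ± 0.14 with the siRNAs and by -4.61 ± 0.19 with the drug on the log2 scale. For BMP4 the difference was -1.31 ± 0.25, adjusted p = 0.0151, for TGFB3 -1.23 ± 0.28, adjusted p = 0.0313 and for SMAD6 -0.74 ± 0.17, adjusted p = 0.0286, genes that rose in both experiments and more with the drug. For TGFBI it was 1.83 ± 0.16, adjusted p = 0.000284 and for BMP2 1.39 ± 0.28, adjusted p = 0.0209. Both were called lower with the drug, whereas with the siRNAs TGFBI was called lower and BMP2 did not pass. For GREM1 it was -2.13 ± 0.49, adjusted p = 0.0323 and for TGFBR3 -0.86 ± 0.18, adjusted p = 0.0205, with siRNA values close to 0. The other 5 genes, NOG, LTBP4, FSTL3, TGFB1 and LTBP2, had fitted responses of opposite sign and differences of -2.23, -1.61, -1.05, -0.68 and -0.60 in that order. For FST, BAMBI, ID3, TGFB2 and GDF6, which moved with the siRNAs, the difference did not pass. Its unadjusted intervals were -0.48 to 1.20 for FST, -0.12 to 0.85 for BAMBI, -0.85 to -0.05 for ID3 (adjusted p = 0.159), -0.55 to 0.43 for TGFB2 and -0.73 to 1.59 for GDF6. Under each of 16 alternatives FSTL3 and TGFBI kept the call. The other 10 lost it only when a library was left out, from 2 of 10 libraries for BMP4 (replicate 1 of the nonspecific siRNA or DMSO replicate 2) to 9 of 10 for LTBP2. The count was 4 without replicate 1 of the nonspecific siRNA or without either DMSO library, 5 without SCH772984 replicate 1 and 7 without replicate 2 of the nonspecific siRNA.

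**Figure D4:**
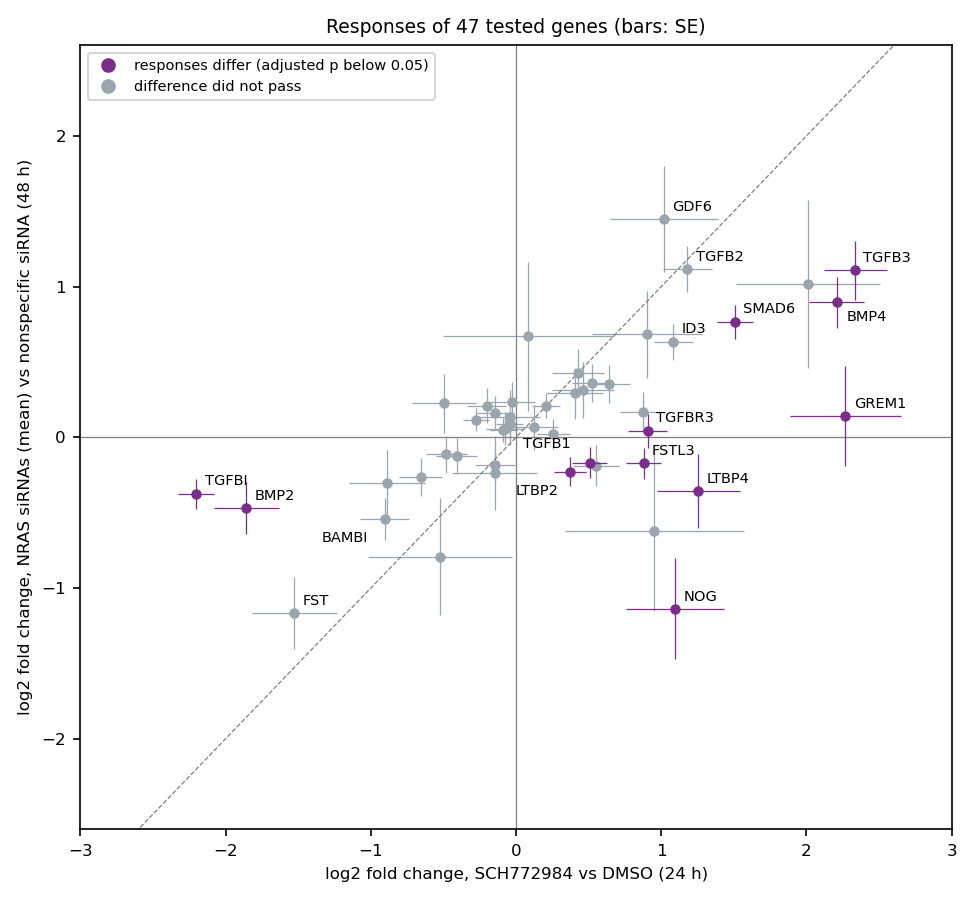
Log2 fold change of each of the 47 tested genes with SCH772984 over DMSO (x axis) and with the mean of both NRAS siRNAs over the nonspecific siRNA (y axis), with SE bars. The 12 purple genes differ between the responses at an adjusted p below 0.05. BMP4, TGFB3 and SMAD6 lie right of and below the dashed line of equal responses, NOG to the right and well below 0, and TGFB2 close to the line.

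NRAS siRNA 1 and NRAS siRNA 2 were also compared with each other. None of the 47 genes passed (0.427% of all genes did) by edgeR, 2 had an unadjusted p under 0.05, and DESeq2 also gave 0. The mean of both therefore describes the genes above without a called difference between the siRNAs, although an absent call does not show equal action. For GDF6 the siRNA 2 libraries had 69 and 37 counts and the siRNA 1 libraries 31 and 24, and the log2 difference, siRNA 1 over siRNA 2, was -0.85 ± 0.33 (unadjusted interval -1.58 to -0.11, adjusted p = 0.752).

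Beyond the 49 genes, 57 other ligands, receptors and regulators of the pathway were listed, of which 44 were tested. With SCH772984 8 were higher and 4 lower (27.3%, close to the 28.0% of all genes), and with the mean of both siRNAs 3 were higher and 3 lower (13.6%, against 7.95% of all genes). LRRC32, which encodes GARP, the protein that tethers latent TGF-beta at the cell surface, rose in both. It was at 30.2 and 36.7 CPM with SCH772984, against 6.29 and 7.02 CPM with DMSO (2.33 ± 0.17, adjusted p = 1.91e-05). It was at 6.65 and 7.79 CPM with NRAS siRNA 1 and 9.33 and 11.8 CPM with NRAS siRNA 2, against 4.97 and 5.51 CPM with the nonspecific siRNA (0.74 ± 0.16, adjusted p = 0.0249). All treated libraries were above their controls. SMURF2, a ubiquitin ligase of SMADs and receptors, was lower in both (-1.21 ± 0.16, adjusted p = 0.000627 with the drug and -0.53 ± 0.14, adjusted p = 0.0447 with the siRNAs), as was the co-receptor ENG (-0.49 ± 0.15, adjusted p = 0.0358 and -0.51 ± 0.13, adjusted p = 0.041).

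LEFTY2, a secreted Nodal antagonist and SMAD2 target gene, had 128 and 104 counts with SCH772984, against 2 and 1 counts with DMSO (adjusted p = 3.63e-05). It had 7 and 5 counts with NRAS siRNA 1 and 5 and 3 counts with NRAS siRNA 2, against 0 and 0 counts with the nonspecific siRNA (adjusted p = 0.0354). No fold is given at such control counts. Every library outside SCH772984 was under the filter's minimum count of 10. LEFTY2 was thus tested only because of the group where it was high. Its calls are not support for a change, and the counts are given as a description. With the drug ACVR1C, a type I receptor of Nodal (1.29 ± 0.35, adjusted p = 0.0212), and RGMA, a BMP co-receptor (0.89 ± 0.18, adjusted p = 0.00476), were higher and NOMO1, a Nodal modulator, lower (-0.95 ± 0.12, adjusted p = 0.000346). NOMO1 has near-identical copies, so its counts are uncertain. With the siRNAs FURIN, the protease that cleaves the TGF-beta precursors, was lower (-0.49 ± 0.09, adjusted p = 0.0153).

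A list of 44 further target genes of TGF-beta or BMP signals, 40 of them tested, gave 18 higher and 5 lower with SCH772984 (57.5%, against 28.0% of all genes), and 4 higher and 6 lower with the mean of both siRNAs (25.0%, against 7.95% of all genes). The median log2 fold change was 0.38 with the drug and -0.04 with the siRNAs. This list too was chosen with earlier results of these data known. With the drug the contractile genes ACTA2 (3.88 ± 0.41, adjusted p = 0.000153) and TAGLN (3.09 ± 0.24, adjusted p = 2.43e-05), the matrix gene COMP (1.75 ± 0.38, adjusted p = 0.00788) and the homeobox gene DLX3 (1.84 ± 0.40, adjusted p = 0.0079) were higher. TAGLN was at 39.6 and 69.7 CPM with SCH772984, against 6.38 and 6.45 CPM with DMSO, and the groups were far apart. In contrast, IL11 (-1.87 ± 0.43, adjusted p = 0.00966), also known as a gene induced by TGF-beta, was lower. IL11 was at 17.3 and 15.1 CPM with SCH772984, against 47.1 and 71.4 CPM with DMSO.

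With the siRNAs CYR61 (-1.09 ± 0.20, adjusted p = 0.0127), JUNB (-1.02 ± 0.22, adjusted p = 0.0249), CDKN2B (-1.01 ± 0.11, adjusted p = 0.00166) and MSX1 (-0.86 ± 0.19, adjusted p = 0.0273) were lower, and ATOH8, a BMP target (0.72 ± 0.19, adjusted p = 0.0444), and ZEB2 (0.63 ± 0.12, adjusted p = 0.0177) were higher. CDKN2B, the gene of a cell cycle inhibitor induced by TGF-beta, was at 14.3 and 16.8 CPM with NRAS siRNA 1 and 11.1 and 12.5 CPM with NRAS siRNA 2, against 27.6 and 27.1 CPM with the nonspecific siRNA. All 4 NRAS siRNA libraries were below both controls. With SCH772984, MSX1, ATOH8 and ZEB2 were called in the same direction as with the siRNAs, and CYR61, JUNB and CDKN2B were not called. For JUNB and CDKN2B the responses differed (-1.40 ± 0.35 and -1.39 ± 0.18, adjusted p = 0.0386 and 0.00208 by edgeR). In the test of the difference between responses 9 of the 40 passed (22.5%, against 7.30% of all genes), all with the siRNA response below the drug response. Over all genes 675 calls of that test had the siRNA response below and 403 above. The 9 included COL1A1 (-1.72 ± 0.13, adjusted p = 0.000143) and ACTA2 (-2.91 ± 0.59, adjusted p = 0.0203). COL1A1 also stands on the list of fibroblast markers. Several of these targets, such as ACTA2, TAGLN and CYR61, are also known to respond to other pathways, and SMAD activity itself was not measured.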

How the data were processed

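RNA of 10 RD cell libraries was sequenced as stranded, poly(A)-selected libraries, per the labels' protocols. The authors' deposited files hold raw read counts per gene. Per the submitters' processing notes, HTSeq, SAMtools, TopHat2 and bcl2fastq were used with build hg19 (GRCh37). No version, annotation or strand setting is stated in the labels, so reads of overlapping antisense genes may be mixed. Of all reads, 38.33 to 39.45% fell in 5 summary categories that name no gene and were left out. The 10 files of single samples equalled the columns of the series table.

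Counts were scaled by TMM, filtered with filterByExpr (minimum count 10) and tested in 1 fit over all 10 libraries with edgeR 4.0.16 (R 4.3.3), by the quasi-likelihood test with 5 residual degrees of freedom and Benjamini-Hochberg adjustment over 14761 genes at 0.05. The ± after a log2 value is its SE. CPM uses the scaled library sizes, and CPM per kb the longest principal transcript of GENCODE 29, another build than the authors'. The script was tested on simulated data. The members and lists were chosen with earlier results of these data known. Genes passing in any comparison were given with every library's value. Of the other lists up to 6 of the called genes with the largest change per comparison were named, at 1 CPM or more, and some of them are not reported here. Promoter sequences came from RefSeq (GRCh38.p14), with 1 chromosome left out before the search, and 44 of 49 genes matched. Alternatives were RLE and upper-quartile scaling, no filter, a stricter filter, DESeq2 1.42.0, a fit of the compared groups alone, a replicate block, and each library left out. Replicates correlated at 0.990 to 0.993 (log2 CPM). Intervals and the floor of 3 counts cover counting error or spread between these libraries only.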

Additional observations from a re-analysis of the deposited data

Results flagged for a closer look

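For 5 genes the mean NRAS siRNA response and the SCH772984 response had opposite fitted signs and the difference between them passed an adjusted p of 0.05 by edgeR. The difference, siRNA response minus drug response on the log2 scale, was -2.23 for NOG, -1.61 for LTBP4, -1.05 for FSTL3, -0.68 for TGFB1 and -0.60 for LTBP2. In each the drug value was positive and called, and the siRNA value was negative and did not pass. Of the 5, FSTL3 kept the difference under every alternative, and the others lost it when 1 of several libraries was left out. Time of collection and transfection differ between the experiments and cannot be told apart from the treatment.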

How the results depend on the processing

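Genes of the further lists were not put through the alternatives. Among the 47 tested genes of the pathway, no log2 fold change that was called changed direction under any alternative. The number of genes past the threshold moved by over 1.5 times in these cases. For NRAS siRNA 1 (4 genes) it was 8 with no filter on low counts, 7 by DESeq2, 9 with the replicate block and 0 with the compared groups fitted alone. For NRAS siRNA 2 (8 genes) it was 16 with the block and 3 with the groups alone. For the mean of both siRNAs (9 genes) it was 4 with the groups alone. For the nonspecific siRNA against DMSO (2 genes) it was 1 with RLE scaling, 6 with no filter, 6 by DESeq2, 7 with the block and 0 with the groups alone. With the compared groups alone fewer residual degrees of freedom are left. The difference between responses has no such fit. For the other changes the cause was not tested. Leaving out 1 library at a time gave 0 to 5 genes for NRAS siRNA 1, 0 to 9 for NRAS siRNA 2, 3 to 9 for the mean of both, 15 to 26 for SCH772984, 4 to 10 for the difference between responses, 0 for NRAS siRNA 1 against NRAS siRNA 2 and 0 to 2 for the nonspecific siRNA against DMSO. A lone library left in a group was assumed to vary like the other groups. The replicate block gave 12 genes for the mean of both siRNAs, 31 for SCH772984, 17 for the difference and 0 between the siRNAs. Same-numbered libraries deviated together in all 10 pairs of groups, with correlations of 0.0737 to 0.448, a hint from the data and not from the design, so the numbers were not taken as pairing. With 2 libraries a group, and few counts for ID4, GDF6, MSTN and GDF5, an absent call does not show that a gene did not change.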
